A study of Homo sapiens with 12 samples.

Results

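The genes described here are the 7 genes that encode the subunits of the transcription factor AP-1 (FOS, FOSB, FOSL1, FOSL2, JUN, JUNB and JUND) together with EGR1, IER2 and MYC. They were found by gene symbol among the 63541 Ensembl genes of the count table, and all 10 passed the filter on low counts that left 21999 genes to test. The libraries came from HEK293T, an immortalised human embryonic kidney line grown in serum, transfected with a scramble control siRNA or with 1 of 3 siRNAs against snaR-A, a small noncoding RNA made by RNA polymerase III. Each siRNA was used at 12.5 nM, RNA was collected 48 h later, and each of the 4 groups held 3 libraries of poly(A)+ RNA. The groups are called scramble and, for the knockdowns that the labels number from 1 to 3, siRNA #1, siRNA #2 and siRNA #3. All groups share the line, the transfection reagent, the dose and the time, and all 3 siRNA groups are compared with the same 3 scramble libraries. The 3 siRNA sequences that the study lists overlap near the end of snaR-A, so they do not test separate target sites. No stimulus of these genes is named in the sources used here, and snaR-A itself was not analysed here, so the knockdown was not checked in these libraries.

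Immediate early genes are a class whose transcription can rise within minutes of a growth factor or stress signal without new protein being made first, and whose mRNAs usually decay fast. AP-1 is a dimer of basic leucine zipper proteins: JUN proteins can pair with each other or with a FOS protein, whereas FOS proteins need a JUN partner to bind DNA. EGR1 is a zinc finger factor induced through ERK kinases and the serum response factor SRF, IER2 is a small nuclear protein of the same early response, and MYC is a basic helix-loop-helix factor that drives genes of growth and ribosome synthesis.

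Within the 250 bases before their starts, these genes differ in their regulatory letters. Bases farther upstream were not searched, so a motif absent here may stand there. JUN and EGR1 are printed because they went opposite ways with 2 siRNAs, and FOS and JUND because they encode partners of JUN that were not called higher with every siRNA. Sequences are from RefSeq on GRCh38.p14, 250 bases before the start on the gene's own strand. Capitals mark TGACGT or the full TGACGTCA (the cyclic AMP response element and the stretch TGACGT within it), TGACATCA (a variant bound by dimers of JUN and ATF2), the CArG box bound by SRF, and TATAAA, on either strand. JUN is at chr1:58784048-58784297 on the minus strand, EGR1 at chr5:138465229-138465478 on the plus strand, FOS at chr14:75278578-75278827 on the plus strand and JUND at chr19:18281623-18281872 on the minus strand.
JUN: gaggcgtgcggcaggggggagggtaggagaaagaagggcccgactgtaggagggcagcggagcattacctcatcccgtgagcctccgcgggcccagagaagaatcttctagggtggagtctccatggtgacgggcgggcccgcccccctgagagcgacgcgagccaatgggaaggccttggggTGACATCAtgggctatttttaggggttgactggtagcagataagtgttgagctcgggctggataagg
EGR1: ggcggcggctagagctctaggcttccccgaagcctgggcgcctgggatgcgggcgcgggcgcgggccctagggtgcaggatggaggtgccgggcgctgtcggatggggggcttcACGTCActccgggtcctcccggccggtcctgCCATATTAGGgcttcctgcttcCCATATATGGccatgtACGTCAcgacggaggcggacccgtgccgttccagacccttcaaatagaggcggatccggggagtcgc
FOS: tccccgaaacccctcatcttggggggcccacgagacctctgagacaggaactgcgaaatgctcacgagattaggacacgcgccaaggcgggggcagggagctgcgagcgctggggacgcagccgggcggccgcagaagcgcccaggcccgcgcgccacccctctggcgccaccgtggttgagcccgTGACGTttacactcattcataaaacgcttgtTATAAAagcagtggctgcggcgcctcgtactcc
JUND: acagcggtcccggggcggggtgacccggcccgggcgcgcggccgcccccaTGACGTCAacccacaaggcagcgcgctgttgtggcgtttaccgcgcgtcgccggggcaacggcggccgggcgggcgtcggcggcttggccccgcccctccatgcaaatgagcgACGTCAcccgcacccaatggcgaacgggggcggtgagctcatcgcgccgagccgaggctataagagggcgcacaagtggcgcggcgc

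The search covered 8 of the 10 genes: no window was found for FOSL1, and MYC was left out by choice. JUN held TGACATCA with its first base at position -67, counted from -1 at the base before the start, and 2.37% of the 35116 RefSeq windows held it. EGR1 held CArG boxes at -105 and -83, against 1.16% of all windows. TGACGT stood in 5 of the 8 windows (FOSL2, EGR1, FOS, JUND and FOSB), against 7.1% of all windows. JUND held the full TGACGTCA at -200, against 1.65%, which also counts as a match of TGACGT on each strand. TATAAA was in FOS, JUNB and FOSB at -33, -31 and -30, against 10.7%. TGACTCA, the site that JUN and FOS dimers are best known to bind, and CACGTG, the site of MYC, were in 0 of the 8, against 4.2% and 6.34% of all windows. A match is a description of letters and not a measured binding site.

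Libraries held 120.4 to 180.1 M estimated counts, and the 10 genes ranged from 154 to 357 counts per library for FOSL1 to 41848 to 94482 for JUN. Levels are given below as CPM, the count of a gene for each M counts of its library after TMM scaling. That scaling sets a factor for each library and assumes that most genes do not differ between libraries. At most 1.05% of the deposited values above 0 were whole numbers (within 0.001), so the counts look rescaled by the authors' quantification, possibly for transcript length, a step that the sources used here do not describe. In single-exon genes the 5th percentile of the values above 0 and under 30 was 0.936 to 1.008 in the shortest of 6 classes of exon length and 0.979 to 1.001 in the longest, so 1 read was worth about 1 count at any length and the values were not divided by length. Levels, shares and ratios below carry whatever that rescaling did to them. The line's labels were checked against 8 markers of HEK293T, of which 7 averaged at least 1 CPM, with LHX1 at 0.533 CPM. The summed level of those 8 markers was 1180 to 1270 CPM in scramble, 1040 to 1180 with siRNA #1, 1700 to 1720 with siRNA #2 and 1310 to 1390 with siRNA #3, and its part in the values below was not tested. Markers of other cells, apart from the fibroblast markers COL1A1 and LUM, were low or below the filter: PTPRC, CD3E, COL1A2, ALB, PECAM1 and CDH5 did not pass it. COL1A1, at 13.0 to 27.0 CPM, was the highest of the other lists, and LUM ranged from 3.02 to 8.29 CPM. The HEK293T markers PAX2 (4.57 to 7.36 CPM), KRT8 (6.93 to 8.87) and LHX1 were below COL1A1, so the lists overlapped in level. In bulk RNA, fewer cells that make a transcript and less transcript per cell cannot be told apart.

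Per kilobase of exon, JUN was the highest of the 10 genes in scramble cells, with 96.7 ± 2.98 RPKM (SD, n = 3; RPKM here is the CPM divided by the summed exon length in kilobases). MYC followed with 27.1 ± 0.925, JUND with 17.3 ± 1.24, JUNB with 11.0 ± 0.729, IER2 with 10.8 ± 0.573, FOS with 3.58 ± 0.298, EGR1 with 3.09 ± 0.471, FOSL2 with 1.22 ± 0.057, FOSL1 with 0.973 ± 0.18 and FOSB with 0.683 ± 0.129. Neighbours in this order whose scramble libraries overlapped were JUNB and IER2, FOS and EGR1, and FOSL2 and FOSL1. The lengths are unions of all annotated exons, so levels of genes with many annotated transcripts, such as MYC, may be understated relative to the others.

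**Figure D1:**
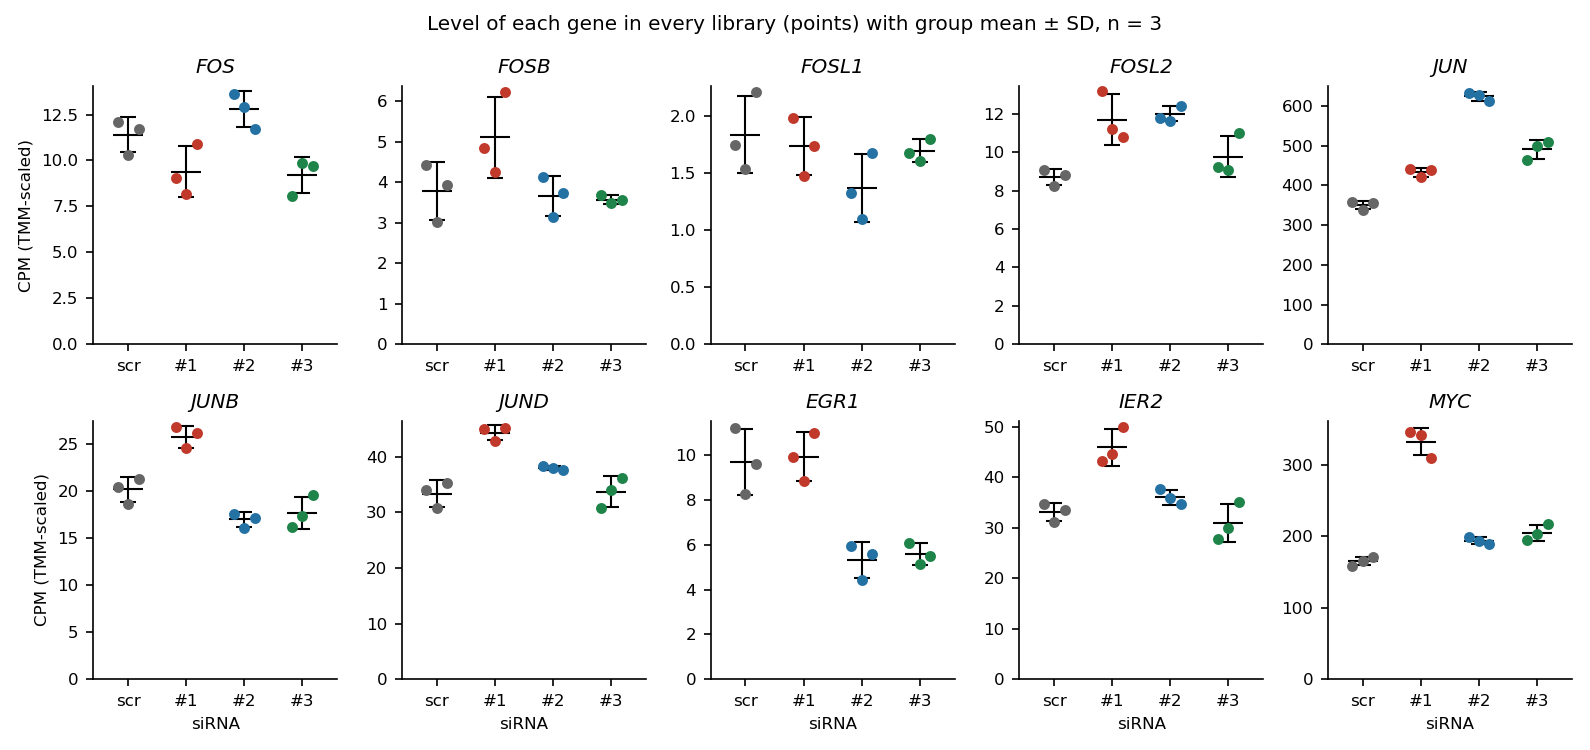
Level of each gene in TMM-scaled CPM (axes from 0) in every library, for scramble (scr) and the 3 siRNAs (#1 to #3), with the group mean and SD over 3 libraries. JUN and MYC sat above all scramble libraries with every siRNA, EGR1 sat below them with siRNA #2 and siRNA #3 but not with siRNA #1, and JUNB was highest with siRNA #1.

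Against scramble, 7 of the 10 genes were higher with siRNA #1 and 0 lower, 4 were higher and 2 lower with siRNA #2, and 2 were higher and 2 lower with siRNA #3, by edgeR's quasi-likelihood test with Benjamini-Hochberg adjusted p under 0.05. Of all genes tested, 44.9% were called with siRNA #1 (21.7% higher, 23.2% lower), 25.8% with siRNA #2 (13.7% higher, 12% lower) and 29.3% with siRNA #3 (16.5% higher, 12.9% lower), so calls were common throughout the table. These and later shares cover all 21999 genes tested, of which 14529 averaged at least 1 CPM, as all 10 genes did. Shares among genes of like level were not taken. The higher share of all called genes was 53.3% for siRNA #2 and 56.1% for siRNA #3, and under upper quartile scaling it was 40.5% and 42.8%. The median log2 fold change of the 10 genes was 0.38, 0.14 and -0.095 with the 3 siRNAs in order, beside -0.0192, -0.0314 and -0.0328 for all genes tested. The libraries of an siRNA lay wholly above scramble for 6, 4 and 2 of the 10 genes with the siRNAs in order, as for 25.6%, 21.3% and 22.0% of all genes, and wholly below it for 0, 2 and 2, as for 27.3%, 22.0% and 21.4%. JUN and MYC were higher with all 3 siRNAs, which 5.18% of genes tested were, and 0 of the 10 were lower with all 3, which 2.85% of genes were. Averaged over the siRNAs, FOSL2, JUN, JUND and MYC were called higher and EGR1 lower, where 32.2% of genes tested were called (15.7% higher, 16.5% lower). All 9 siRNA libraries lay above scramble for 2 of the 10 genes (6.62% of all genes) and below it for 0 (5.50%).

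**Figure D2:**
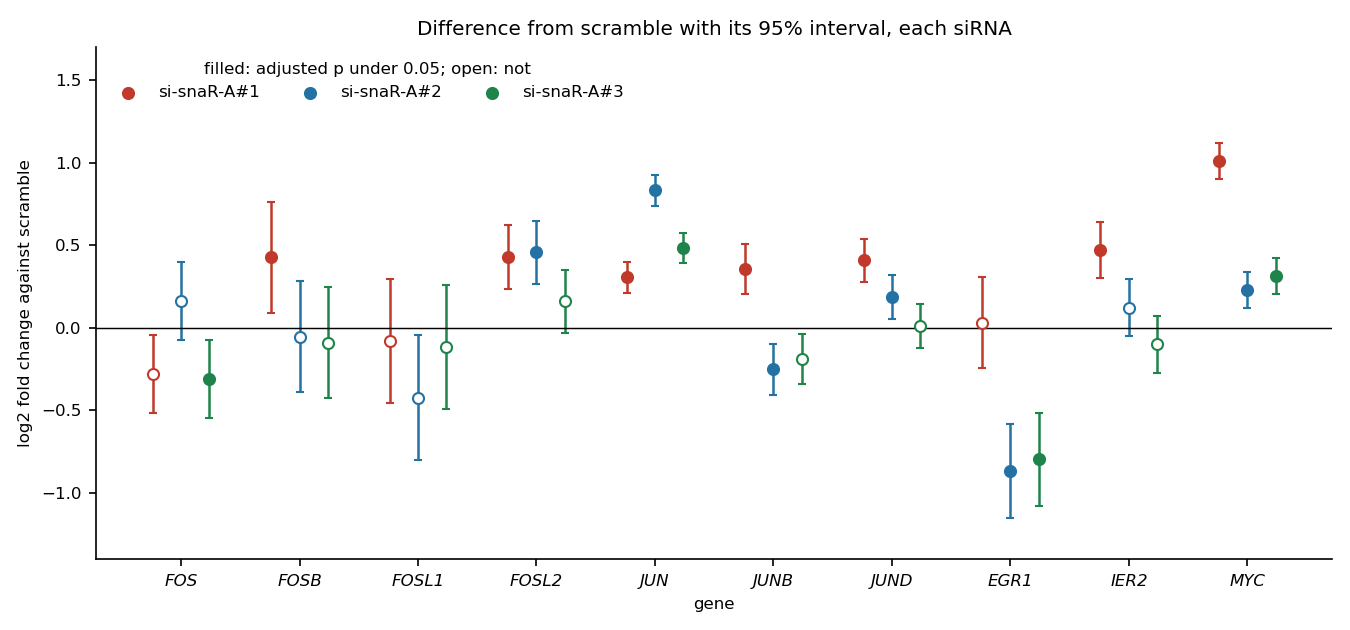
Log2 fold change against scramble (vertical axis) with its 95% interval from edgeR's quasi-likelihood fit for each of the 10 genes (horizontal axis) and each siRNA; filled points passed an adjusted p of 0.05. JUN and MYC are filled and above 0 for all 3 siRNAs, with MYC highest for siRNA #1 at 1.01 and JUN highest for siRNA #2 at 0.83.

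JUN, the AP-1 subunit with the highest level here, rose with every siRNA and most with siRNA #2. It measured 357, 338 and 356 CPM in the scramble libraries, 441, 420 and 438 with siRNA #1, 633, 627 and 612 with siRNA #2 and 464, 498 and 508 with siRNA #3. None of the 9 siRNA libraries overlapped the scramble libraries, and siRNA #2 overlapped neither of the other siRNAs. The rise was 1.24-fold with siRNA #1 (log2 0.31, SE 0.0432, edgeR quasi-likelihood adjusted p 4.08e-05), 1.78-fold with siRNA #2 (log2 0.83, SE 0.0434, adjusted p 1.17e-08) and 1.40-fold with siRNA #3 (log2 0.48, SE 0.0433, adjusted p 1.41e-06). With siRNA #2, 66 of the 14529 genes averaging 1 CPM or more had a higher log2 fold change than JUN. All 3 calls for JUN held under every alternative processing tried and without any single library.

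Of the other JUN subunits, JUND was called higher with siRNA #1 and siRNA #2 and JUNB with siRNA #1. JUND, which is usually present in resting cells, measured 34.1, 30.8 and 35.4 CPM in scramble, 45.0, 42.8 and 45.3 with siRNA #1, 38.4, 38.0 and 37.6 with siRNA #2 and 30.8, 34.0 and 36.3 with siRNA #3. Its libraries stood above scramble with siRNA #1 and siRNA #2 and overlapped it with siRNA #3. It rose 1.33-fold with siRNA #1 (log2 0.41, edgeR quasi-likelihood adjusted p 7.32e-05) and 1.14-fold with siRNA #2 (log2 0.185, adjusted p 0.0397), and the difference with siRNA #3 was log2 0.01 (95% interval -0.122 to 0.142, adjusted p 0.923). The call with siRNA #2 was lost under upper quartile scaling (adjusted p 0.121) and in 6 of the 12 fits that left out 1 library: scramble replicate 1 (0.0623) or 2 (0.173), siRNA #2 replicate 1 (0.101), 2 (0.0928) or 3 (0.0771), and siRNA #3 replicate 2 (0.0535). JUND's rise averaged over the siRNAs (log2 0.20, adjusted p 0.00704) was lost without scramble replicate 2 (adjusted p 0.0675).

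JUNB, which often opposes JUN in dimers, differed in sign between siRNAs. Its levels were 20.5, 18.7 and 21.3 CPM in scramble, 26.8, 24.6 and 26.2 with siRNA #1, 17.6, 16.1 and 17.2 with siRNA #2 and 16.2, 17.4 and 19.6 with siRNA #3. With siRNA #1 every library lay above scramble, with siRNA #2 every library lay below it, and with siRNA #3 they overlapped. JUNB rose 1.28-fold with siRNA #1 (log2 0.36, edgeR quasi-likelihood adjusted p 8.05e-04) and fell to 0.84-fold with siRNA #2 (log2 -0.25, adjusted p 0.0175). The latter was lost without scramble replicate 1 (adjusted p 0.0537), scramble replicate 3 (0.0944) or siRNA #2 replicate 2 (0.0824). With siRNA #3 the log2 fold change was -0.19 (95% interval -0.34 to -0.0349, adjusted p 0.0621), which passed the threshold under upper quartile scaling (0.0226), with genes under 1 CPM removed (0.0271), with a replicate block (0.0409), and without scramble replicate 2 (0.0372) or siRNA #3 replicate 3 (0.00991). JUNB shares 259 exon bases with HOOK2 on the opposite strand, and how strand was used in counting is not given in the sources used here, so reads from that stretch cannot be assigned to one gene with certainty.

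The FOS subunits were the low members of the family. FOS itself, the classic early response partner of JUN, measured 12.1, 10.3 and 11.7 CPM in scramble, 9.07, 8.18 and 10.9 with siRNA #1, 13.6, 12.9 and 11.7 with siRNA #2 and 8.06, 9.88 and 9.69 with siRNA #3. Only the siRNA #3 libraries lay wholly below scramble. The log2 fold change was -0.31 with siRNA #3 (95% interval -0.545 to -0.0733, edgeR quasi-likelihood adjusted p 0.0482), -0.28 with siRNA #1 (-0.516 to -0.0448, adjusted p 0.0512) and 0.16 with siRNA #2 (-0.0711 to 0.398, adjusted p 0.314). These are calls at the edge of the threshold. The call with siRNA #3 was lost in 9 of 12 fits without 1 library: scramble replicate 1 (adjusted p 0.161) or 3 (0.122), siRNA #1 replicate 1 (0.0631), siRNA #2 replicate 1 (0.0578), 2 (0.0666) or 3 (0.0527), and siRNA #3 replicate 1 (0.175), 2 (0.0551) or 3 (0.0608). It was also lost under RLE scaling (0.0513), edgeR's exact test (0.0526), a replicate block (0.0656) and a fit without the robust prior (0.0566). The value with siRNA #1 passed with DESeq2 (0.0335), with no filter on low counts (0.037) and without scramble replicate 2 (0.0335), siRNA #1 replicate 3 (0.00576) or siRNA #3 replicate 1 (0.0334).

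FOSL2, a FOS protein that lacks the strong activation domain of FOS, rose with 2 of the siRNAs. It measured 9.06, 8.26 and 8.82 CPM in scramble, 13.2, 11.2 and 10.8 with siRNA #1, 11.8, 11.6 and 12.4 with siRNA #2 and 9.24, 9.05 and 11.0 with siRNA #3. The first pair of siRNAs lay above scramble without overlap, and siRNA #3 overlapped it in 1 library. The rise was 1.35-fold with siRNA #1 (log2 0.43, edgeR quasi-likelihood adjusted p 0.00112) and 1.37-fold with siRNA #2 (log2 0.46, adjusted p 0.00156), against log2 0.16 with siRNA #3 (95% interval -0.0289 to 0.353, adjusted p 0.195).

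FOSB and FOSL1, a further pair of FOS subunits, were the least abundant of the 10 genes. FOSB measured 4.42, 3.01 and 3.93 CPM in scramble and 4.84, 4.26 and 6.21 with siRNA #1, and its called rise with that siRNA (log2 0.43, 95% interval 0.0921 to 0.761, edgeR quasi-likelihood adjusted p 0.0377) rested on overlapping libraries. It was lost with edgeR's exact test (adjusted p 0.05), with only the compared groups in the fit (0.0638) and in 6 of 12 fits without 1 library: scramble replicate 2 (0.168) or 3 (0.0611), siRNA #1 replicate 1 (0.0569) or 3 (0.187), siRNA #2 replicate 3 (0.0510) and siRNA #3 replicate 2 (0.0506). With siRNA #2 FOSB ranged from 3.14 to 4.12 CPM and with siRNA #3 from 3.48 to 3.67, with log2 fold changes of -0.053 (95% interval -0.388 to 0.282) and -0.09 (-0.426 to 0.246). FOSL1 ranged from 1.54 to 2.21 CPM in scramble, 1.48 to 1.99 with siRNA #1, 1.10 to 1.68 with siRNA #2 and 1.61 to 1.80 with siRNA #3. All FOSL1 groups overlapped scramble, and it was called with 0 of the 3 siRNAs. Its largest difference was log2 -0.42 with siRNA #2 (95% interval -0.801 to -0.0445, adjusted p 0.0976), which passed with a replicate block (0.0445) and without siRNA #2 replicate 3 (0.0357).

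Summed per length, the 7 AP-1 genes measured 132 ± 5.48 RPKM in scramble, 163 ± 5.11 with siRNA #1, 208 ± 3.44 with siRNA #2 and 168 ± 9.07 with siRNA #3 (SD, n = 3). JUN carried most of that sum: 73.6% ± 0.873 in scramble, 73.3% ± 0.388 with siRNA #1, 82.7% ± 0.296 with siRNA #2 and 80.4% ± 0.657 with siRNA #3. With siRNA #1 JUN's share overlapped that in scramble, whereas with the other siRNAs it lay above it in every library. JUNB's share was 8.38% ± 0.232 in scramble and 8.66% ± 0.136 with siRNA #1, but 4.45% ± 0.20 with siRNA #2 and 5.76% ± 0.30 with siRNA #3. The 4 FOS genes together held 4.90% ± 0.26 of the sum in scramble and 3.94% ± 0.299, 3.39% ± 0.106 and 3.44% ± 0.0585 with the 3 siRNAs in order, below scramble in every siRNA library. Their own summed level was 6.45 ± 0.60 RPKM in scramble, 6.43 ± 0.664 with siRNA #1, 7.06 ± 0.285 with siRNA #2 and 5.79 ± 0.402 with siRNA #3. The smaller share stood beside a larger JUN level with every siRNA. With siRNA #3 it also stood beside a lower mean of the FOS sum, though its libraries (5.37 to 6.17) overlapped those of scramble (5.76 to 6.8). The ratio of JUN to FOS was 27.1 ± 1.49 in scramble and 41.0 ± 5.18, 43.1 ± 2.56 and 47.0 ± 3.22 with the 3 siRNAs, with no overlap between scramble (25.9 to 28.8) and any siRNA library (lowest 35.2). These shares and ratios are descriptions of RNA per length and were not tested.

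**Figure D3:**
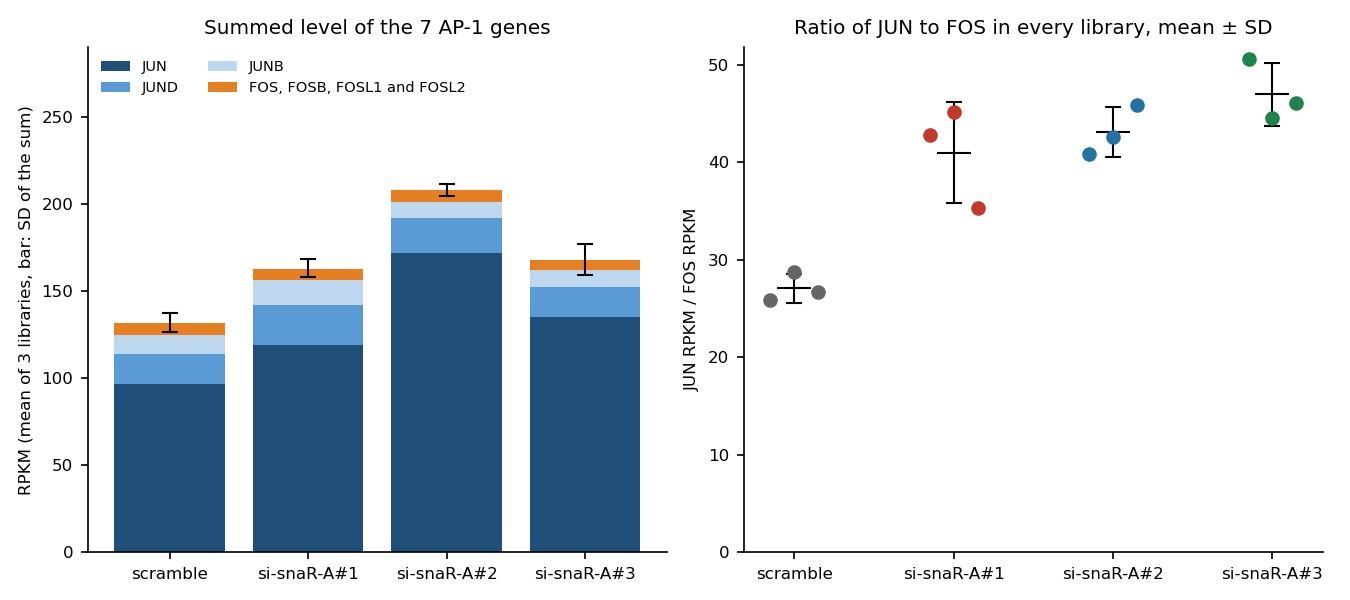
Left, summed RPKM of the 7 AP-1 genes by group, stacked by gene, with the SD of the sum over 3 libraries; right, the ratio of JUN RPKM to FOS RPKM in every library with the mean and SD. JUN is the tallest block in every group, the sum is highest with siRNA #2 at 208, and every siRNA library has a higher ratio than the scramble libraries.

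EGR1 fell with 2 siRNAs and was level with scramble with the remaining one. It measured 11.2, 8.28 and 9.59 CPM in scramble, 9.93, 8.84 and 11.0 with siRNA #1, 5.95, 4.44 and 5.61 with siRNA #2 and 6.10, 5.15 and 5.52 with siRNA #3. All 6 libraries of siRNA #2 and siRNA #3 lay below every scramble and siRNA #1 library. The level was 0.549-fold of scramble with siRNA #2 (log2 -0.86, SE 0.131, edgeR quasi-likelihood adjusted p 2.43e-04) and 0.576-fold with siRNA #3 (log2 -0.80, SE 0.13, adjusted p 4.00e-04). With siRNA #1 the log2 fold change was 0.03, with a 95% interval of -0.245 to 0.309. Among the same 14529 genes, 129 had a lower log2 fold change than EGR1 with siRNA #2 and 187 with siRNA #3. Both falls held under every alternative and without any single library, with adjusted p up to 0.0013 and 0.00325 in the fits that left out 1 library.

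IER2 rose with 1 siRNA. It measured 34.7, 31.2 and 33.4 CPM in scramble, 43.2, 44.5 and 50.0 with siRNA #1, 37.6, 35.9 and 34.6 with siRNA #2 and 27.8, 29.9 and 35.1 with siRNA #3. Only the siRNA #1 libraries stood clear of scramble. The rise was 1.39-fold (log2 0.47, SE 0.0796, edgeR quasi-likelihood adjusted p 2.59e-04), beside log2 0.12 with siRNA #2 (95% interval -0.0511 to 0.293) and -0.1 with siRNA #3 (-0.272 to 0.0724). The last of these passed the threshold without siRNA #3 replicate 3 (log2 -0.199, adjusted p 0.0481). IER2 shares 662 exon bases with ENSG00000287296 and 946 with ENSG00000267598, both noncoding and on the opposite strand, so its counts carry the same doubt about strand as those of JUNB.

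MYC rose with every siRNA and most with siRNA #1. It measured 159, 166 and 171 CPM in scramble, 346, 342 and 310 with siRNA #1, 199, 193 and 190 with siRNA #2 and 195, 204 and 217 with siRNA #3. All 9 siRNA libraries lay above the scramble libraries, and siRNA #1 lay above all others. The rise was 2.01-fold with siRNA #1 (log2 1.01, SE 0.0511, edgeR quasi-likelihood adjusted p 1.75e-09), 1.17-fold with siRNA #2 (log2 0.23, SE 0.0507, adjusted p 0.00359) and 1.24-fold with siRNA #3 (log2 0.31, SE 0.0507, adjusted p 3.03e-04). With siRNA #1, 190 of the 14529 genes had a higher log2 fold change. All 3 calls held under every alternative and without any single library. MYC shares 194 exon bases with the noncoding CASC11 on the opposite strand.

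The 3 siRNAs target overlapping stretches of the same RNA, so agreement between them is not agreement of separate target sites. The test of the difference between them shows where these genes did not respond alike. With siRNA #1, 6 of the 10 genes were higher and 2 lower than with siRNA #2, where 46.4% of genes tested differed (23.5% higher, 22.9% lower), and 7 were higher and 1 lower than with siRNA #3, where 48.4% differed (23.6% higher, 24.8% lower). With siRNA #2, 3 genes were higher (FOS, FOSL2 and JUN) and 0 lower than with siRNA #3, where 15.5% differed (6.55% higher, 8.98% lower). These contrasts share libraries with each other and with those above.

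MYC was higher with siRNA #1 than with siRNA #2 (log2 difference 0.78, SE 0.0509, edgeR quasi-likelihood adjusted p 1.89e-08) and than with siRNA #3 (0.70, SE 0.0508, adjusted p 4.64e-08), while the last pair differed by -0.0823 (95% interval -0.191 to 0.0262). EGR1 showed the same grouping, at 0.90 (SE 0.131, adjusted p 6.58e-05) and 0.83 (SE 0.131, adjusted p 1.25e-04) above siRNA #2 and siRNA #3, with -0.0687 (95% interval -0.351 to 0.214) between these. JUN ran the other way: siRNA #1 was below siRNA #2 by 0.527 on the log2 scale (log2 difference -0.53, adjusted p 1.85e-07) and below siRNA #3 (-0.18, adjusted p 0.00328), and siRNA #2 was above siRNA #3 (0.35, adjusted p 8.92e-05). IER2 was higher with siRNA #1 than with siRNA #2 (0.35, adjusted p 0.00246) and siRNA #3 (0.57, adjusted p 4.58e-05). JUNB was likewise higher (0.61, adjusted p 6.49e-06, and 0.54, adjusted p 1.76e-05), as was JUND (0.22, adjusted p 0.0078, and 0.40, adjusted p 8.50e-05). JUNB is the only one of the 10 genes called higher with siRNA #1, lower with siRNA #2 and different between them, which 4.78% of genes tested were, that count taking both orders of the signs.

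FOS was lower with siRNA #1 than with siRNA #2 (log2 difference -0.44, edgeR quasi-likelihood adjusted p 0.00414) and higher with siRNA #2 than with siRNA #3 (0.47, adjusted p 0.00954), so the FOS difference between siRNAs passed more firmly than either difference from scramble. FOSB was higher with siRNA #1 than with siRNA #2 (0.48, adjusted p 0.021) and siRNA #3 (0.52, adjusted p 0.0136), and both were lost without siRNA #1 replicate 3 (adjusted p 0.138 and 0.0795). The first was also lost without siRNA #2 replicate 2 (0.0955) or 3 (0.0510). FOSL2 was higher with siRNA #1 (0.27, adjusted p 0.0225) and with siRNA #2 (0.29, adjusted p 0.0372) than with siRNA #3. The former was lost without siRNA #1 replicate 1 (adjusted p 0.132) or siRNA #3 replicate 1 (0.0835) or 2 (0.106), and the latter without siRNA #2 replicate 1 (0.0851), 2 (0.0766) or 3 (0.122) or siRNA #3 replicate 1 (0.122) or 2 (0.154). The number of the 10 genes called between siRNA #2 and siRNA #3 became 5 with DESeq2 and without siRNA #1 replicate 3 or siRNA #3 replicate 3, and 2 at the least.

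The order of the replicates was read for the 10 genes together. Scramble replicate 2 was the lowest scramble library for 9 of the 10 genes, where it was lowest for 25.4% of the 14615 genes compared. With siRNA #1, replicate 2 was lowest for 7 of 10 (20.9% of genes), with siRNA #2 replicate 1 was highest for 8 (30.7%) and with siRNA #3 replicate 3 was highest for 7 (44.7%). The spread between replicates, given as edgeR's biological coefficient of variation, was 0.124 for EGR1, 0.104 for FOS and 0.0717 for IER2, above 85.7%, 84.1% and 89.6% of genes of like level (within 1.5-fold). JUN, at 0.0394, was above 22.0% of genes of its level, and MYC, at 0.0465, above 62.5%. JUN and MYC, which passed with all 3 siRNAs, had the lowest coefficients of the 10. They also had the highest mean levels, 474 and 224 CPM, so the low values cannot be told apart from level.

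Other immediate early genes, chosen as a list of 30 of which 27 were tested, were called higher more often than lower: averaged over the siRNAs 14 were higher and 0 lower, with a median log2 fold change of 0.147. Of all genes tested, 15.7% were higher and 16.5% lower on that average, with a median of -0.0384. The leading genes by the naming rule were RHOB, a small GTPase of the cytoskeleton (log2 0.63 on average, and 0.235, 1.00 and 0.65 with the 3 siRNAs in order), and BTG2, an antiproliferative gene (0.53, and 0.505, 0.685 and 0.39). With the single siRNAs, 15 were higher and 3 lower with siRNA #1 (21.7% and 23.2% of all genes), 11 and 2 with siRNA #2 (13.7% and 12%), and 11 and 0 with siRNA #3 (16.5% and 12.9%). EGR1 fell with siRNA #2 and siRNA #3 while more genes of its class were called higher than lower.

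**Figure D4:**
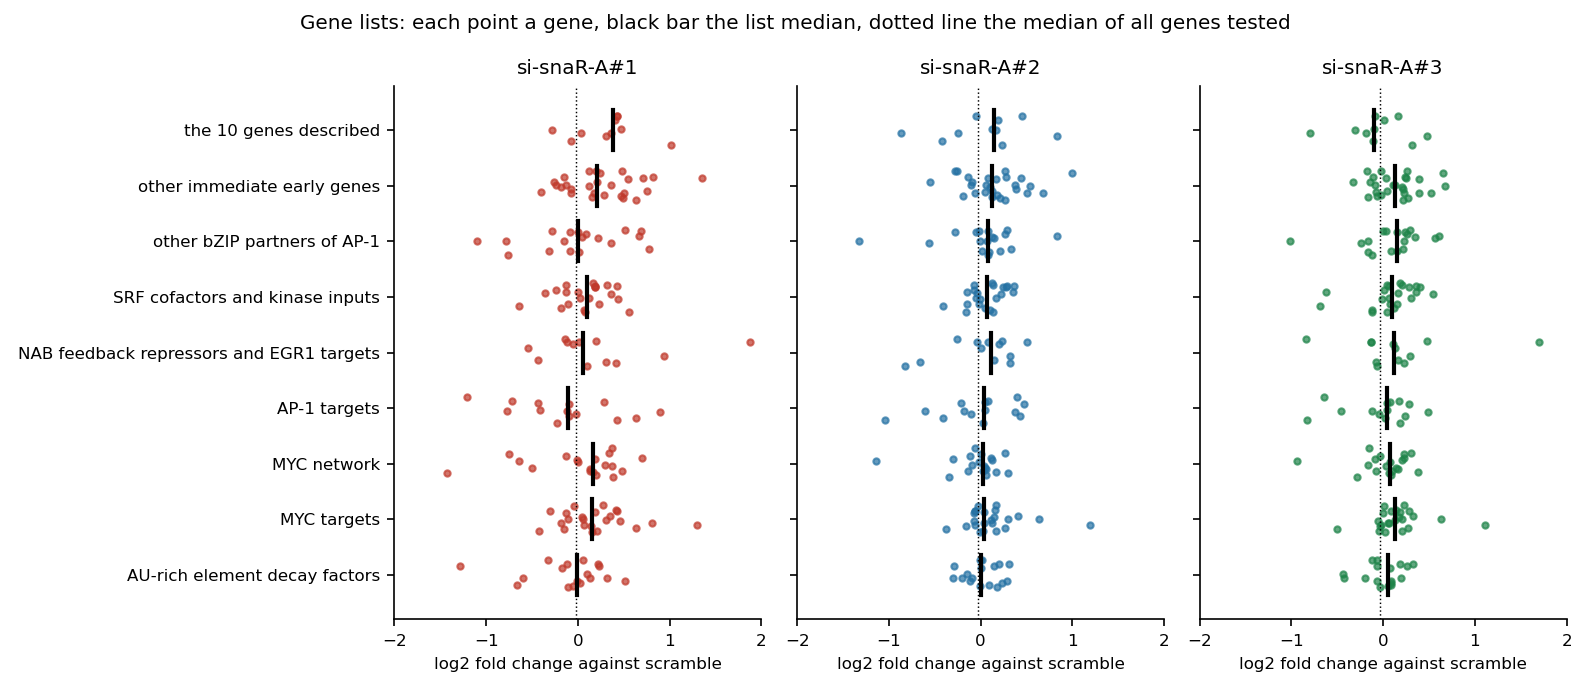
Log2 fold change against scramble (horizontal axis) of each tested gene of 9 lists (rows) with each siRNA (panels); points are genes, black bars are list medians and dotted lines the median of all genes tested. The median of the 10 genes described is 0.38 with siRNA #1 and -0.095 with siRNA #3, and that of the other immediate early genes is above the dotted line in every panel.

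Upstream of these genes, 10 of the 22 tested genes for the ELK and MRTF cofactors of SRF and for the RAS and kinase pathway were higher on average over the siRNAs and 2 lower (median log2 0.106), beside 15.7% and 16.5% of all genes (median -0.0384). SRF itself was counted with the immediate early genes and rose with each siRNA (0.63, 0.262 and 0.219). RPS6KA3, a kinase downstream of ERK, had log2 0.376 on average and passed with each siRNA (0.36, 0.22 and 0.55), as did ELK3, a cofactor of SRF (0.36, and 0.43, 0.29 and 0.36). HRAS, the GTPase at the head of the pathway, fell with each (-0.58 on average, and -0.64, -0.41 and -0.69). MAP2K1, which phosphorylates ERK, fell with siRNA #3 (-0.63), with -0.135 and -0.151 with the others, which did not pass. Among 18 tested genes for other leucine zipper partners, 7 were higher and 3 lower on average (median 0.0267, with the same shares of all genes beside it). NFE2L1 rose with each siRNA (0.66, 0.84 and 0.61) and CREB5 did too (0.78, 0.33 and 0.215), while MAF and ATF2 fell with siRNA #1 (-0.785 and -0.765) and siRNA #3 (-0.165 and -0.124), with -0.00719 and 0.0825 with siRNA #2.

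Downstream, genes of the target lists were called in both directions. Of 14 tested AP-1 targets, 3 were higher and 5 lower on average over the siRNAs (median log2 -0.0842), beside 15.7% higher and 16.5% lower of all genes (median -0.0384). CD44 rose with each siRNA (0.89, 0.37 and 0.49), and VIM rose with siRNA #2 and siRNA #3 (0.47 and 0.28). HMOX1 fell with siRNA #1 and siRNA #2 (-0.77 and -0.61), and LOX fell with siRNA #1 and siRNA #3 (-1.21 and -0.64) but rose with siRNA #2 (0.40). Of 12 genes for the NAB repressors and targets of EGR1, 4 were higher and 2 lower (median -0.0471). NAB1, a repressor that binds EGR1, fell with each siRNA and most with siRNA #3 (-0.139, -0.25 and -0.84). SDC1 rose with each (0.93, 0.32 and 0.29), and F3 rose with siRNA #1 and siRNA #2 (0.42 and 0.32).

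For MYC, whose rise was largest with siRNA #1, 12 of 23 tested targets were higher on average and 1 lower (median log2 0.12), beside 15.7% and 16.5% of all genes (median -0.0384). With the single siRNAs, 12 were higher and 5 lower with siRNA #1 (21.7% and 23.2% of all genes), 9 and 1 with siRNA #2 (13.7% and 12%), and 12 and 1 with siRNA #3 (16.5% and 12.9%). NOLC1, a nucleolar phosphoprotein, rose with each siRNA (1.30, 1.19 and 1.11), HSPD1, a mitochondrial chaperone, rose with siRNA #2 and siRNA #3 (0.64 and 0.63), and CCND2 fell with each (-0.15, -0.38 and -0.50). Of the 19 genes of the MYC and MAX network, 4 were higher and 2 lower (median 0.0263). MXI1 and MXD1, which compete with MYC for MAX, fell with siRNA #1 (-1.43 and -0.75). With siRNA #2 and siRNA #3 MXI1 had 0.30, which passed, and 0.0601, which did not, and MXD1 had 0.00164, which did not, and 0.23, which passed. MYCL rose with siRNA #1 (0.69), and RUVBL2 rose with each (0.34, 0.27 and 0.30).

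Transcripts of this class are short-lived through AU-rich elements, and of 17 tested decay factors 4 were higher and 4 lower on average (median log2 -0.0198), beside 15.7% and 16.5% of all genes (median -0.0384). ZFP36L2, which brings such mRNAs to deadenylation, rose with each siRNA (0.23, 0.148 and 0.26), ZFP36L1 rose with siRNA #1 and siRNA #2 (0.51 and 0.29), TIA1 fell with each (-0.60, -0.21 and -0.20), and ELAVL1, which stabilises such mRNAs, fell with siRNA #2 and siRNA #3 (-0.151 and -0.43).

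The genes whose profile was most like each of 5 members were sought among 14519 other genes of at least that mean level, 1 CPM, by the mean absolute difference of centred log2 CPM over the 12 libraries, which share their libraries and scaling. For JUN they were NTN4 (0.0548), ERLIN1 (0.0629) and BICC1 (0.0719), beside JUN's own mean deviation of 0.252. NTN4, picked for this likeness, went from 5.49 CPM in scramble to 7.37, 10.0 and 7.99 with the siRNAs, the order seen for JUN. The search selects for such a shared order. For MYC they were SDC4 (0.0442), DIAPH1 (0.0447) and FAM53B (0.0486), beside 0.31, and DIAPH1 measured 168 CPM in scramble and 350, 198 and 214 with the siRNAs. For EGR1 they were PDZD4 (0.109), PPP1R12C (0.117) and RTEL1-TNFRSF6B (0.118), beside 0.395. For IER2 they were ZDHHC8 (0.0465), TMCO6 (0.0533) and FHOD1 (0.0556), beside 0.182, and for FOS they were BEND6 (0.0783), FAM76B (0.0845) and MIER2 (0.0892), beside 0.194.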

How the data were processed

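Poly(A)+ RNA of 12 HEK293T libraries, 3 for each of 4 groups set by the labels, was sequenced from a stranded kit after rRNA depletion. The authors trimmed reads with Trim Galore, quantified transcripts with Salmon on hg38 and deposited estimated counts per Ensembl gene that are not normalized between libraries and look rescaled, possibly for transcript length; the step from transcripts to genes, the transcriptome release and the use of strand are not given in the sources used here. The counts were rounded, scaled by TMM and filtered with filterByExpr, and 1 coefficient per group was fitted over all libraries with edgeR 4.0.16 (R 4.3.3, robust quasi-likelihood test, Benjamini-Hochberg over 21999 genes, threshold 0.05), a step tested on simulated data. Contrasts compared each siRNA and their mean with scramble, and the siRNAs with each other. The replicates are described by the study as biological and were processed together; p-values measure the spread between these libraries. TMM factors were 0.956 to 1.089. Gene positions, lengths and overlaps came from GENCODE 44, promoters from RefSeq. The 10 genes and the lists were chosen with earlier results of these data known. All 10 are named; from other lists, at most the 2 highest and the 2 lowest called genes with at least 1 CPM in the mean of the siRNAs, and for likeness the 3 nearest genes, with a pseudocount of 0.5 CPM; 1 gene that this rule names is counted in its list and not reported here by name. The alternatives were RLE and upper quartile scaling, other filters on low counts, unrounded counts, a replicate block, DESeq2 1.42.0, edgeR's exact test, only the groups compared, each library left out, and, chosen after seeing the data, a fit without the robust prior.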

Additional observations from a re-analysis of the deposited data

Results flagged for a closer look

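JUNB was flagged because its difference from scramble had opposite signs with 2 siRNAs against the same RNA. It was called higher with siRNA #1, lower with siRNA #2 and different between them, a rule that 4.78% of genes tested met with either order of signs. By edgeR's quasi-likelihood test, the call with siRNA #2 was lost without scramble replicate 1 (adjusted p 0.0537), scramble replicate 3 (0.0944) or siRNA #2 replicate 2 (0.0824). The difference between these siRNAs, itself part of the rule, was log2 0.607 by the same test (95% interval 0.455 to 0.76, adjusted p 6.49e-06). All 3 libraries of siRNA #1 were above all 3 of siRNA #2. The difference held under every alternative tried, with adjusted p up to 8.24e-05 when a library was left out. Its cause was not tested.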

How the results depend on the processing

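Of the 41 calls of these genes over 7 contrasts, 32 held under every alternative run, among them all those of JUN, MYC and EGR1, and those of FOSL2, JUNB, JUND and IER2 with siRNA #1. The number of the 10 genes called between siRNA #2 and siRNA #3 moved from 3 to 5 with DESeq2, and over the fits without 1 library it was 2 to 5. Values that turned sign were all small and not called. JUND with siRNA #3 was -0.0429 under upper quartile scaling and -0.0177 with genes under 1 CPM removed, and FOSL2 between siRNA #1 and siRNA #2 was 0.0242 and 0.0057. Without 1 library, log2 fold changes ran from -0.0463 to 0.0734 for JUND with siRNA #3, -0.07 to 0.149 for EGR1 with siRNA #1, -0.191 to 0.0739 and -0.227 to 0.037 for FOSB with siRNA #2 and siRNA #3, -0.0439 to 0.221 for FOSB and -0.0779 to 0.0239 for JUNB averaged over the siRNAs, and -0.191 to 0.0778 and -0.223 to 0.0444 for FOSL1 with siRNA #1 and siRNA #3. Between siRNA #1 and siRNA #3 they ran from -0.0964 to 0.12 for FOS and -0.0741 to 0.138 for FOSL1, between siRNA #1 and siRNA #2 from -0.123 to 0.0135 for FOSL2, and between siRNA #2 and siRNA #3 from -0.058 to 0.136 for FOSB, -0.156 to 0.0471 for EGR1 and -0.126 to 0.015 for JUNB. IER2 averaged over the siRNAs (adjusted p 0.074) passed with RLE scaling (0.0427), DESeq2 (0.0201) and without siRNA #3 replicate 1 (0.026). JUND between siRNA #2 and siRNA #3 passed with DESeq2 (0.0336), genes under 1 CPM removed (0.0352) and without scramble replicate 3 (0.0406), siRNA #1 replicate 3 (0.0444) or siRNA #3 replicate 3 (0.0247), IER2 there with DESeq2 (0.0279) and without siRNA #1 replicate 3 (0.0337) or siRNA #3 replicate 3 (0.00736), and FOSL1 between siRNA #1 and siRNA #2 without siRNA #2 replicate 3 (0.039). All genes called between siRNA #2 and siRNA #3 fell from 3416 to 2268 without siRNA #2 replicate 2. Causes were not tested. List counts moved by over 1.5 times, or between 0 and another count, in 79 values. Averaged over the siRNAs, other immediate early genes ranged from 12 to 14 higher and 0 to 2 lower. On the same average, MYC targets ranged from 9 to 13 higher with 1 lower. SRF cofactor and kinase genes ranged there from 10 to 11 higher and 2 to 5 lower. With a replicate block, 7 of the 10 genes passed with siRNA #2 in place of 6 and the other counts of the 10 genes were as reported; same-numbered libraries correlated at -0.236 to 0.172 over 18 pairs and 3 of 12 libraries fitted best with their own number, so the numbers were not read as pairs.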
